A study of Mus musculus with 4 samples.

Results

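The 7 genes for inhibitors of cyclin-dependent kinases (CDKs), Cdkn1a, Cdkn1b, Cdkn1c, Cdkn2a, Cdkn2b, Cdkn2c and Cdkn2d, were followed in C2C12 cells, a mouse myoblast line, after knockdown of Sfmbt1, a chromatin protein gene. The members were every probe set that the array annotation gives to exactly 1 of these genes, which came to 9 of 34945 probe sets with 1 gene, for 7 of 18193 named genes. Cdkn1a and Cdkn1b had 2 probe sets each and the other genes 1 each. Every culture, control and knockdown alike, held pLKO.1 as a stable insert and was kept in growth medium with 20% serum and 2 ug/ml puromycin. The 2 control cultures expressed a control hairpin, on which the labels differ: it is given as scrambled in one place and as directed at luciferase in another. In the 2 knockdown cultures it expressed a hairpin against SFMBT1. The labels call the cultures biological replicates, and the series text says that they were grown independently. It was not established whether each culture had its own transduction, so p-values cover only the spread between these cultures. RNA from each culture was hybridised to 1 Affymetrix array, and the signals are MAS5 values on a linear scale as deposited.

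CDK inhibitors bind CDKs or their cyclin complexes and hold cells out of the division cycle. The Cip/Kip proteins p21, p27 and p57 (from Cdkn1a, Cdkn1b and Cdkn1c) bind cyclin-CDK complexes of several kinds. The Ink4 proteins p16, p15, p18 and p19Ink4d (from Cdkn2a, Cdkn2b, Cdkn2c and Cdkn2d) bind Cdk4 and Cdk6 and keep D-type cyclins off them. In myoblasts, p21 is known to rise as cells leave the cycle to form muscle fibres, and the p16 locus is a known target of Polycomb repression.

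In the knockdown Cdkn1a was higher in both of its probe sets and Cdkn2d was lower, at 49.8% of its control signal. Cdkn1b and Cdkn2c had lower values that did not pass the test, Cdkn1c did not differ detectably, and Cdkn2a and Cdkn2b had too little signal to be tested. Of the 9 probe sets, 7 passed the filter on dim signal, which keeps the upper 60% of mean log2 signal over all 4 arrays. Of these 7, 2 were called higher and 1 lower by limma at an adjusted p under 0.05. Over all 22893 probe sets tested, 0.961% were called higher and 1.43% lower. The 2 higher members measure the same gene. The groups did not overlap in 6 of the 7, against 45.6% of all probe sets tested, so non-overlap of any 1 probe set is common on these arrays. Cdkn1a and Cdkn1b each gave 2 of the 6. The 3 member calls were lost when no filter on dim signal was used and when limma was fitted without its variance trend (adjusted p from 0.0601 to 0.293). The median difference of the 7 was -0.30 log2 units, and that of all tested probe sets was -0.01.

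Each array was read against its own background, the 95th percentile of 27 Bacillus control probe sets, which lay at 49.1 and 53.2 in the control, against 69.3 and 42.9 in the knockdown. Knockdown replicate 1 had the highest limit and the lowest share of probe sets above it, 56.2% against 64.3% to 67.6% on the other arrays. Sfmbt1 had 5 probe sets, of which 1443853 was in the background range on all 4 arrays and gives no direction. In the other 4 both knockdown arrays lay below both controls, and 1 passed the test (probe set 1422894, log2 -2.35, adjusted p = 0.0219). Knockdown replicate 2 was in the background range for that probe set. With the background limit in its place the means of log2 values in probe set 1422894 differed by at least 4.58-fold. This bound leaves out the spread between arrays. The same 2 settings ended the call of 1422894 (adjusted p = 0.165 and 0.246), as did median centring (0.0502) and quantile normalization (0.0572). The fall was smaller in probe sets 1422893, 1429749 and 1455412, at log2 -1.11, -0.54 and -0.50 (limma adjusted p = 0.0594, 0.333 and 0.339). The labelled cell type matched its markers: all 9 myoblast marker genes were above background on all 4 arrays, with Myod1 between 2548 and 3739. Their summed signal was 22614 and 25250 in the control, against 22659 and 23620 in the knockdown. The leukocyte gene Ptprc, the endothelial genes Pecam1 and Vwf and the fat cell genes Adipoq and Lep stayed in the background range on all 4 arrays. Above it on all 4 arrays were 5 of 7 fibroblast, 4 of 6 macrophage, 1 of 5 endothelial and 0 of 4 adipocyte marker genes, and 0 probe sets of the 5 marker lists were called. The summed fibroblast signal was 1461 to 1517 in the control and 1788 to 1821 in the knockdown, and its part in the results was not tested. In that list Cd34 read 702 and 767 in the control, against 986 and 1064 in the knockdown. In their brightest probe sets Pdgfra, Thy1, Dcn, Tcf21 and Dpt overlapped between the groups, and Lum was higher but near the background limit. Fewer cells of a type and less RNA per cell cannot be told apart in such bulk samples.

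**Figure D1:**
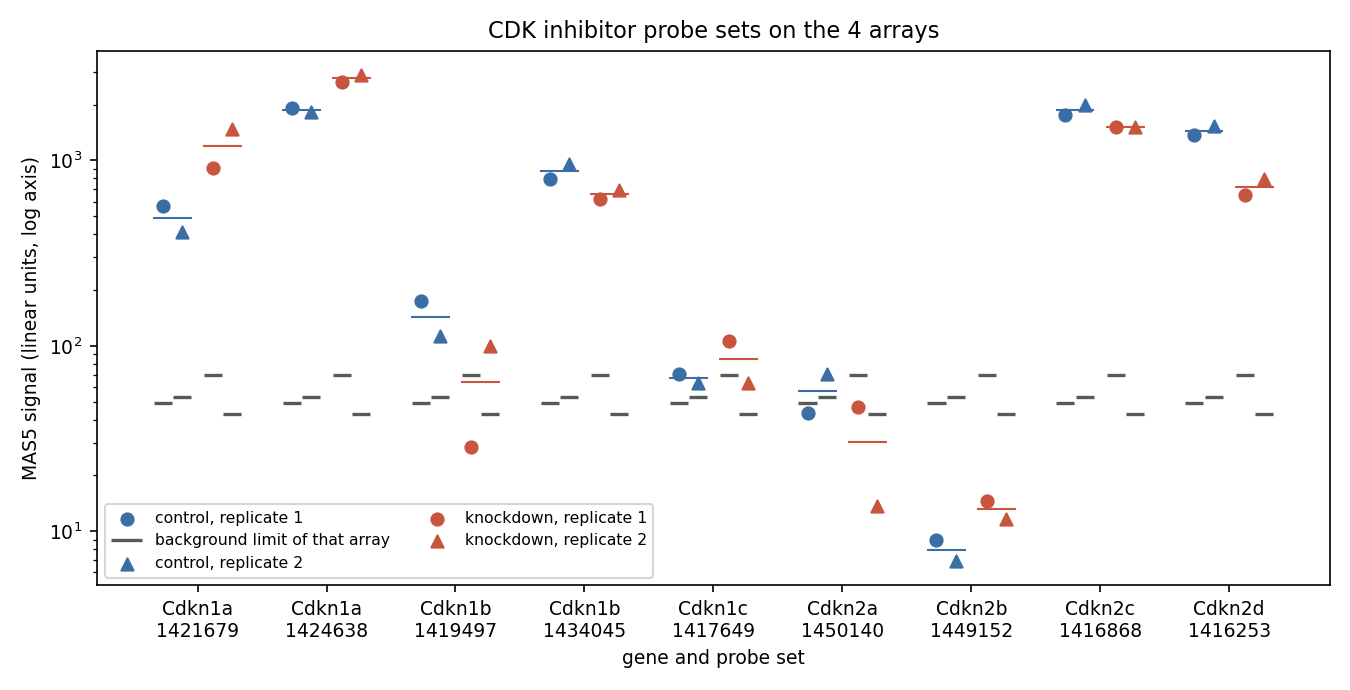
MAS5 signal (vertical log axis) of the 9 CDK inhibitor probe sets on the control (blue) and knockdown (red) arrays, replicate 1 as circles and replicate 2 as triangles. Coloured lines are group means and grey dashes the background limit of each array. Both Cdkn1a probe sets are higher and Cdkn2d is lower in the knockdown, and Cdkn2b lies under the limit on all 4 arrays.

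Cdkn1a encodes p21, which blocks cyclin-CDK complexes and also binds the replication clamp PCNA. In probe set 1424638 its signal was 1924 and 1829 for the controls, against 2666 and 2889.8 for the knockdown. Both knockdown arrays lay above both control arrays, by more than the spread inside either group. The mean went from 1877 ± 67.2 to 2778 ± 158 (SD, n = 2 each), a log2 difference of 0.56 (SE 0.12, limma adjusted p = 0.0376), or 1.48-fold. In probe set 1421679 the signal was 566 and 412 in the control, against 906 and 1487 in the knockdown. The groups again did not overlap, and the knockdown arrays lay further apart from each other than in the other probe set. Here the mean went from 489 ± 109 to 1197 ± 411 (SD, n = 2 each), a log2 difference of 1.24 (SE 0.22, adjusted p = 0.0176), or 2.36-fold.

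The call in probe set 1424638 rests on both control arrays, with an adjusted p of 0.121 without control replicate 1 and 0.170 without control replicate 2. In such fits the lone array of a group is assumed to vary like the other group, so a p that passes is weak support. In probe set 1421679 the adjusted p stayed under the threshold with each array left out in turn, with log2 differences from 0.89 without knockdown replicate 2 to 1.59 without knockdown replicate 1. The 2 probe sets gave different sizes of the Cdkn1a rise. The log2 ratio of probe set 1421679 to 1424638 on the same array was -1.76 and -2.15 in the control, against -1.56 and -0.96 in the knockdown. That ratio did not overlap between the groups, and its mean changed by 0.70. The change of the ratio was not tested with a model, and a two-sided exact permutation test of 2 against 2 arrays cannot give a p under 0.333. The parts of the transcript that the probe sets read were not established here.

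RefSeq (GRCm38.p6) lists 2 start sites for Cdkn1a, and the 250 bases before each are shown because Cdkn1a is the member that rose. RefSeq promoters were found for 6 of the 7 members, all but Cdkn1c, in 9 windows. Capitals mark letters of the TATA box (TATAA), the E-box (CANNTG), the GC box (GGGCGG) and the p53 half-site consensus, each searched on both strands.
Cdkn1a, upstream start, chr17:29090729-29090978, plus strand: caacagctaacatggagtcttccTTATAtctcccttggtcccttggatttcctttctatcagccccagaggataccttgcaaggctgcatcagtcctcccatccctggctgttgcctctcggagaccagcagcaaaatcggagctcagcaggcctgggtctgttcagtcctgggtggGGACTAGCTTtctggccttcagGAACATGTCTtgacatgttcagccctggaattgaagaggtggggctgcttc
Cdkn1a, downstream start, chr17:29093519-29093768, plus strand: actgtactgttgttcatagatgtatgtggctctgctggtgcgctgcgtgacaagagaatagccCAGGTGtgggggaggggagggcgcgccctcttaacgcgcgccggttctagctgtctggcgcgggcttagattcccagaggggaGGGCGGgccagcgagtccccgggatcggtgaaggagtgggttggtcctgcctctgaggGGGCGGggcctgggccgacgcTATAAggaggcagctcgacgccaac
The window of the upstream start held 2 p53 half-sites, beginning 73 and 51 bases before the start, and TATAA once on the other strand. The window of the downstream start held 1 E-box, 2 GC boxes and TATAA, which began 25 bases before the start. Over 32851 windows of the same length the p53 half-site was found in 7.13%, the E-box in 66.2%, the GC box in 32.7% and the TATA box in 22.8%. Among the 9 member windows they were found in 2, 2, 5 and 2. These matches describe letters and not binding, and which start the cells used was not measured.

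Cdkn1b encodes p27, which accumulates in resting cells and is removed through the ubiquitin ligase subunit Skp2. Its brighter probe set 1434045 read 791 and 955 in the control, against 622 and 696 after knockdown. Both knockdown arrays lay below both control arrays, but the gap was no larger than the distance between the controls. The means were 873 ± 116 and 659 ± 52.5 (SD, n = 2 each), a log2 difference of -0.39 (SE 0.16, adjusted p = 0.250). In probe set 1419497 the signal was 174 and 112.5 in the control, against 28.3 and 100.0 in the knockdown. Only knockdown replicate 1 stood clearly apart there, and it was also the array in the background range. The log2 difference was -1.13 (SE 0.47, adjusted p = 0.273). With the background limit in place of that array the measured means of log2 values differed by at least 1.68-fold. This bound covers only the array in the background range and leaves out the spread between arrays. Without knockdown replicate 1 the difference was -0.43. Without knockdown replicate 2 it was -1.82 with an adjusted p of 0.00655, but that value rests on the 1 array in the background range and takes its spread from the controls. Both p27 probe sets therefore had negative differences, and neither passed the test with all 4 arrays. The 95% intervals, not adjusted for the number of probe sets, ran from -0.74 to -0.05 in probe set 1434045 and from -2.15 to -0.10 in probe set 1419497.

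Cdkn1c encodes p57, the inhibitor of this family whose gene is imprinted and expressed from the maternal copy. Its signal was 70.5 and 63.1 in the control, against 106 and 63.0 in the knockdown, near the background limit but above it on all 4 arrays. The groups overlapped, with knockdown replicate 2 at the level of control replicate 2. The log2 difference was 0.25 (SE 0.42, adjusted p = 0.839), with a 95% interval from -0.66 to 1.16. Without knockdown replicate 1 the difference was -0.07, so its sign rests on that array.

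The Ink4 genes fell into 2 with a clear signal and 2 without. Cdkn2a encodes p16 and, from another reading frame, p19Arf, and its probe set 1450140 read 43.2 and 70.3 in the control, against 46.5 and 13.7 in the knockdown. Only control replicate 2 was above background, so no fold is given. Cdkn2b, the p15 gene that lies beside Cdkn2a, read 9.0 and 6.9 in the control, against 14.6 and 11.6 in the knockdown, in the background range throughout. Neither passed the filter, so no difference in them was detectable on these arrays in either direction. Which of the 2 Cdkn2a products its probe set reads was not established here.

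Cdkn2c encodes p18, an Ink4 protein found in proliferating precursors as well as in differentiating muscle. It read 1751 and 1998.5 in the control, against 1518 and 1522 in the knockdown. The knockdown arrays were nearly equal and both lay below the controls. The log2 difference was -0.30 (SE 0.13, adjusted p = 0.300), with a 95% interval from -0.58 to -0.01. Without 1 array in turn it ran from -0.39 to -0.20.

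Cdkn2d encodes p19Ink4d, whose level is known to vary through the cell cycle. It read 1369 and 1529.6 in the control, against 648.5 and 795 in the knockdown. Every knockdown value lay far below the lower control value, at a distance several times the spread within either group. The mean went from 1449 ± 113 to 722 ± 104 (SD, n = 2 each), a log2 difference of -0.99 (SE 0.15, adjusted p = 0.00704), with a 95% interval from -1.32 to -0.67. With each array left out in turn the differences ran from -1.14 to -0.85 and stayed under the threshold, with the same limit on the lone array's spread. Only 1.67% of all tested probe sets had a lower difference. By comparison, 99.5% and 94.9% of tested probe sets lay below the Cdkn1a probe sets 1421679 and 1424638. A stretch of 30 bases of the Cdkn2d window (chr9:21291304-21291333, minus strand, RefSeq GRCm38.p6) is shown because Cdkn2d is the member that fell, with its 2 adjacent GC boxes in capitals.
Cdkn2d: cgctctGGGCGGggcctgGGGCGGgcttgc
The full Cdkn2d window held 3 GC boxes over both strands and 1 p53 half-site, which shares bases with a GC box of that stretch. It held neither a TATA box nor an E-box.

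**Figure D2:**
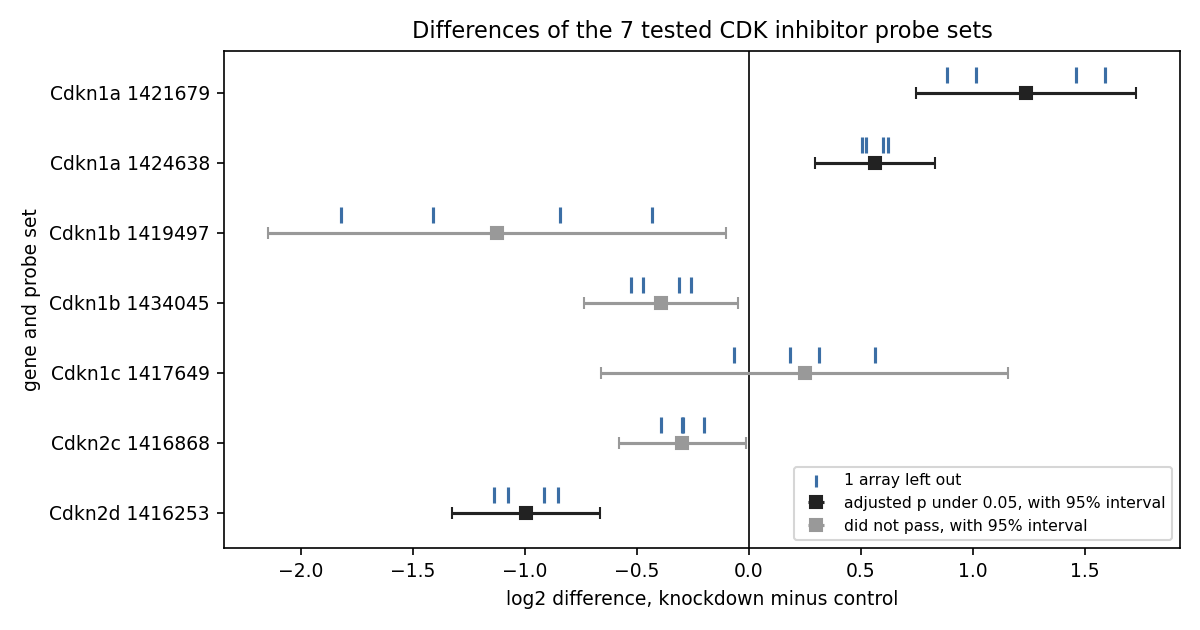
Log2 difference, knockdown minus control (horizontal axis), of the 7 tested CDK inhibitor probe sets, as squares with 95% intervals, black where the adjusted p was under 0.05. Blue ticks are the difference with 1 of the 4 arrays left out. The 2 Cdkn1a probe sets lie above 0 and Cdkn2d at -0.99, while ticks lie on both sides of 0 for Cdkn1c.

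The cyclins and their kinases are what these inhibitors act on. Of 42 tested probe sets from a list of cyclin and CDK genes, with CDK regulators such as Wee1 and Pkmyt1, 1 was called higher and 1 lower. The median difference of this list was 0.10. Beside this and the lists below stand the shares over all tested probe sets, 0.961% higher and 1.43% lower. A count of 1 or 2 calls says little about a list as a whole. The cyclin E1 gene Ccne1, a partner of Cdk2 that p21 and p27 block, fell by 0.73 log2 units in probe set 1441910 (SE 0.17, adjusted p = 0.0460). Its other probe set 1416492 differed by -0.60 (adjusted p = 0.135). Pkmyt1, a kinase that restrains Cdk1, rose by 1.21 in probe set 1438601 (SE 0.27, adjusted p = 0.0408), but its brighter probe set 1418481 differed by -0.24 (adjusted p = 0.600). Without control replicate 2 Ccne1 had an adjusted p of 0.274, and without control replicate 1 Pkmyt1 had 0.158. The Pkmyt1 call was also lost with median centring (adjusted p = 0.0557), quantile normalization (0.0666) and a replicate block (0.0543), and the Ccne1 call with a pseudocount of 1 (0.0506).

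Downstream of the kinases, the retinoblastoma proteins and the E2F factors carry the block on division. Of 25 tested probe sets of this list 0 were called higher and 2 lower, with a median of -0.24. E2f8, an E2F repressor gene, read 419.5 and 325 in the control, against 71.7 and 107 in the knockdown in probe set 1444319 (log2 -1.89, SE 0.26, adjusted p = 0.00419). The brighter E2f8 probe set 1436186 differed by -0.31 (adjusted p = 0.416). Tfdp1, the dimerisation partner of E2F proteins, fell from 3959 ± 322 to 2095 ± 184 (SD, n = 2 each), a difference of -0.91 log2 units (SE 0.13, adjusted p = 0.00425). Of 53 tested probe sets of proliferation markers 0 were called higher and 2 lower, with a median of -0.10. Kif11, which encodes a mitotic motor, was lower by a log2 difference of -0.72 in probe set 1452315 (SE 0.14, adjusted p = 0.0240), and 2 other probe sets of it differed by -0.50 and -0.35. The replication helicase gene Mcm3 fell by 0.60 in probe set 1426653 (adjusted p = 0.0290), while its 4 other probe sets differed by -0.10 to 0.19. Both calls were lost without control replicate 1 (adjusted p = 0.122 for Kif11 and 0.0865 for Mcm3), and that of Mcm3 also without control replicate 2 (0.149).

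Among genes that set the transcription of the Cip/Kip genes 2 of 51 tested probe sets were called higher and 0 lower, with a median of 0.04. Myog, the myogenic factor myogenin, read 342 and 296 in the control, against 1657 and 1833 in the knockdown (a difference of 2.40 log2 units, SE 0.15, adjusted p = 5.11e-05). Plagl1, a zinc finger factor gene, read 56.3 and 93.6 in the control, against 345 and 305 in the knockdown (a difference of 1.93 log2 units, SE 0.28, adjusted p = 0.00498), and its other probe sets did not pass the filter. Genes of terminal muscle differentiation were higher on the same arrays as Cdkn1a: 13 of 23 tested probe sets were called higher and 0 lower, with a median of 1.51. Their summed signal was 7950 and 8246 in the control, against 18021 and 18625 in the knockdown. The myosin light chain gene Mylpf and the actin gene Actc1 rose by 2.54 and 2.14 log2 units. This list was chosen with earlier results of these arrays known, and its part in the Cdkn1a values was not tested.

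Other target genes of p53, the factor best known for inducing Cdkn1a, were compared next. Tests covered 21 of the 24 listed targets, without Bax, Fas and Perp, and Trp53, the p53 gene itself, had no tested probe set. Of 39 tested probe sets 2 were called higher and 1 lower, with a median of 0.01. Both higher ones belong to the cyclin G1 gene Ccng1, which rose by 0.52 log2 units in each of the probe sets 1420827 and 1450017 (adjusted p = 0.0458 and 0.0398). The remaining Ccng1 probe set 1450016 differed by 0.32 (adjusted p = 0.207). Neither call held without control replicate 1 (adjusted p = 0.248 and 0.257) or control replicate 2 (0.0995 and 0.0924), and that of 1420827 was also lost without knockdown replicate 2 (0.0729). Ei24, a p53-induced gene of the endoplasmic reticulum, went the other way, from 1427.5 and 1626 in the control to 555 and 689 in the knockdown (a difference of -1.28 log2 units, SE 0.15, adjusted p = 0.00190).

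The ubiquitin ligases that remove Cip/Kip proteins had 0 of 39 tested probe sets called in either direction, with a median of -0.02. The smallest adjusted p-values were those of the ligase subunit gene Skp1, with a difference of 0.37 (adjusted p = 0.240), and of Ddb1, with 0.21 (adjusted p = 0.415). Regulators of the Ink4 locus, chiefly Polycomb genes, had 0 of 46 probe sets called higher and 2 lower, with a median of -0.15. Both lower ones measure Bmi1, a Polycomb protein known to repress Cdkn2a. It read 1635 and 1700.5 in the control, against 678 and 666 in the knockdown in probe set 1417493 (log2 -1.29, SE 0.13, adjusted p = 0.000827). In probe set 1448733 it read 562 and 551 against 149 and 198 (log2 -1.61, SE 0.20, adjusted p = 0.00217). On the same arrays Cdkn2a was above background on 1 of 4 and Cdkn2b on 0 of 4, so the 2 could not be compared with it. Kdm2b, a histone demethylase gene, differed by -0.60 in probe set 1452198 (adjusted p = 0.0759) and by -0.26 in probe set 1459861 (adjusted p = 0.439).

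**Figure D3:**
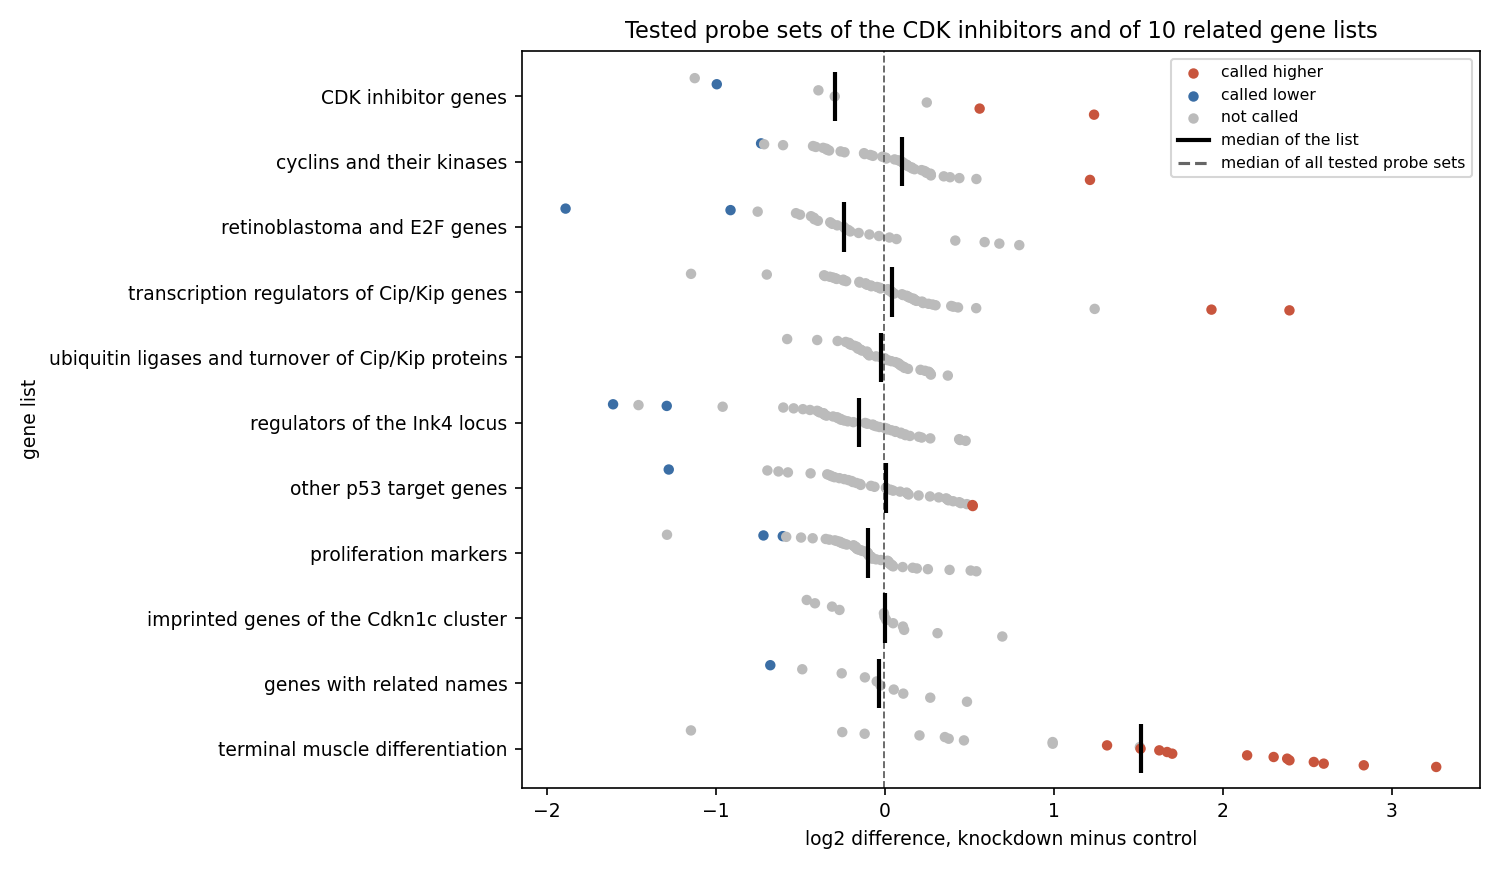
Log2 difference, knockdown minus control (horizontal axis), of every tested probe set of the CDK inhibitors and of 10 related gene lists (vertical axis), red where called higher, blue where called lower and grey where not called. Black bars are the list medians and the dashed line the median of all tested probe sets. The list of terminal muscle differentiation has a median of 1.51, while the other lists have medians between -0.30 and 0.10.

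Some genes have similar names but encode no Cip/Kip or Ink4 inhibitor. Of 10 tested probe sets of Cdkn3, Cdkn2aip, Cdkn2aipnl and related genes 0 were called higher and 1 lower, with a median of -0.04. That was Cdk2ap2, a CDK2-associated protein gene, which fell by 0.68 log2 units (SE 0.15, adjusted p = 0.0441). Its call was lost when control replicate 2 (adjusted p = 0.142) or knockdown replicate 1 (0.0529) was left out. Cdkn2aipnl had the next smallest adjusted p, with a difference of 0.49 (adjusted p = 0.112).

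The genomic neighbours of the members were compared with them, taking the nearest 2 genes on each side, in RefSeq order, that had a tested probe set. Other RefSeq genes often lay between, up to 29 between Cdkn2a and Tusc1. Of 24 distinct neighbours 0 were called higher and 1 lower, against 0.961% and 1.43% of all probe sets tested. A single call among so few genes says little about the neighbours as a group. The gene that fell was Mtap, methylthioadenosine phosphorylase, the nearest tested gene on one side of both Cdkn2a and Cdkn2b. Between it and these 2 members lay 3 and 5 other RefSeq genes. Its brightest probe set 1451345 read 4448 and 4716 in the control, against 2647 and 3015 in the knockdown (a difference of -0.69 log2 units, SE 0.12, adjusted p = 0.0146). The other 3 Mtap probe sets differed by -0.50, -0.43 and -0.41, with adjusted p from 0.0990 to 0.176. Without control replicate 2 the adjusted p of probe set 1451345 was 0.0545. Around Cdkn1a, the splicing factor gene Srsf3 differed by 0.35 (adjusted p = 0.249), and Stk38, Cpne5 and Ppil1 by -0.12 to 0.08. Around Cdkn2d, Qtrt1 differed by -0.17, Kri1 by 0.09, Slc44a2 by 0.21 and Atg4d by 0.70 (adjusted p = 0.698, 0.848, 0.563 and 0.0822), against -0.99 for Cdkn2d itself. In the imprinted cluster of Cdkn1c 0 of 12 tested probe sets were called, with a median of 0.00. There the growth factor gene Igf2 differed by 0.70 (adjusted p = 0.123), Tnfrsf22 by -0.46 in probe set 1422039 (adjusted p = 0.185) and the antisense transcript Kcnq1ot1 by -0.01. A dimmer Tnfrsf22 probe set, 1422038, which did not pass the filter, read 114 and 132 in the control and was in the background range on both knockdown arrays.

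**Figure D4:**
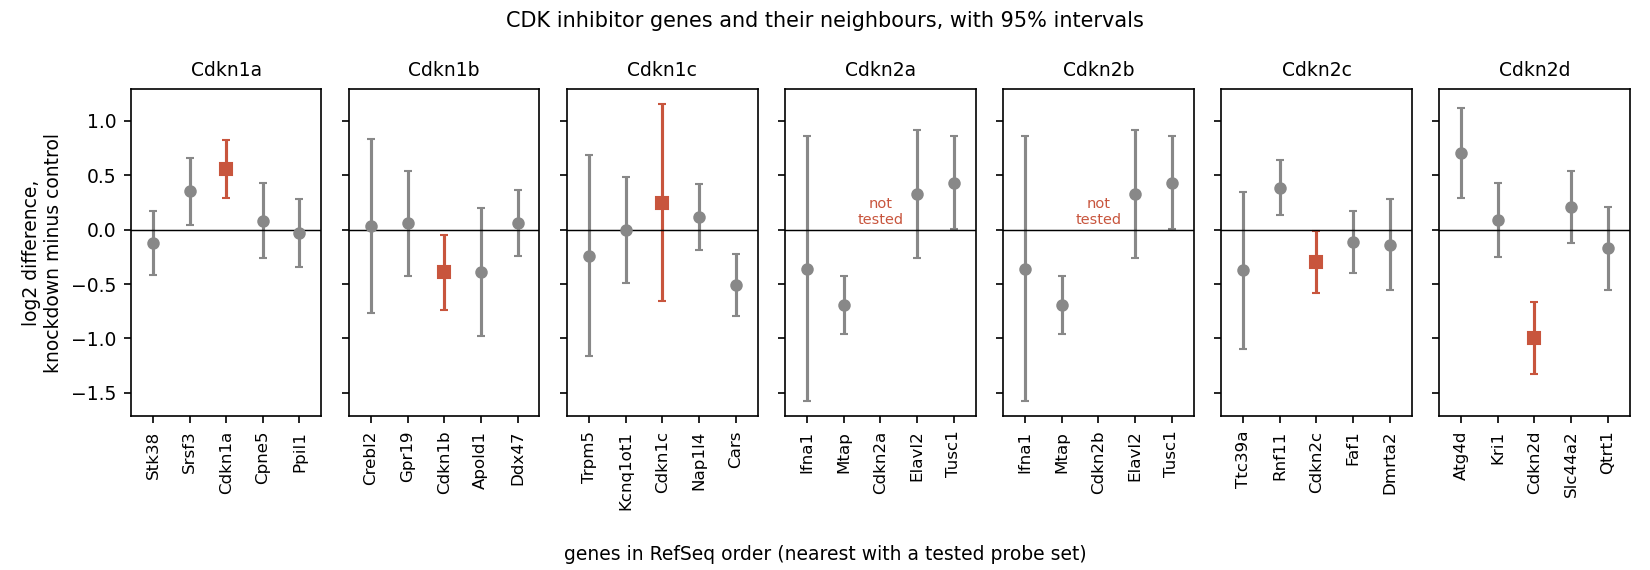
Log2 difference, knockdown minus control (vertical axis), of each CDK inhibitor gene (red square, its brightest tested probe set) and of the nearest tested genes on either side in RefSeq order (grey circles), with 95% intervals. Mtap, the nearest tested gene on one side of the untested Cdkn2a and Cdkn2b, lies at -0.69. Cdkn2d lies at -0.99 between Kri1 at 0.09 and Slc44a2 at 0.21.

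The genes whose pattern over the 4 arrays was closest to the brightest Cdkn1a probe set were Cdhr1, Reep3, Fzd6, Arhgef7 and Plekhg4. Likeness was the Euclidean distance between log2 values centred on their mean, which ran from 0.0167 for Cdhr1 to 0.0346 for Plekhg4 over 4 arrays. Their differences were 0.54 to 0.59 log2 units, close to the 0.56 of Cdkn1a because they were chosen for likeness on these same arrays. None of the 5 passed the test, with adjusted p from 0.0566 to 0.273. The SE ran from 0.14 for Reep3 to 0.24 for Cdhr1.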

How the data were processed

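RNA from 4 cultures, 2 control and 2 knockdown, was measured on 1 array each. The authors deposited linear MAS5 intensity values made in GCOS, per the submitters' processing notes. Versions and the scaling between arrays are not given in the sources used here. Of 45101 probe sets, 34945 had 1 gene in the array annotation, 932 several and 9160 none in that table, and 64 were controls. Symbols were updated by gene identifier, and 34741 matched RefSeq (GRCm38.p6). The values carry no coordinates.

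Values were taken as log2(signal + 16), a scale that understates changes of dim genes. The dimmest 40% of all probe sets by mean log2 signal (below a signal of 57.3) were left out, and the remaining 22893 with 1 gene were tested with limma 3.58.1 (lmFit, eBayes with a variance trend) in R 4.3.3. The residual degrees of freedom were 2 and the prior added 9.60. The Benjamini-Hochberg adjusted p, over all probe sets tested, had to lie under 0.05. The number of arrays limits the precision. The limma fit was run on simulated arrays with known changes and independent errors, without shifts of whole arrays. That run checked the size and sign of the fitted changes, and not the background limit or the promoter search.

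The members, 10 related lists and 5 marker lists (223 of 229 symbols matched, 1 by a synonym) were chosen with earlier results of these data known. Named genes are the members, Sfmbt1, called genes and the 2 smallest p of each list (at most 6), 2 neighbours on each side, and 5 genes closest to Cdkn1a. The comparison was repeated with 14 alternatives. Any further gene named was picked with its values in view.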

Additional observations from a re-analysis of the deposited data

How the results depend on the processing

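The cause of each change below was not tested. Without the filter on dim probe sets 22 probe sets were called higher and 41 lower, and without the variance trend 0 and 0 (2913 at an unadjusted p under 0.05), against 220 and 328. These 2 settings ended all 3 member calls: the log2 differences stayed at 1.24 and 0.56 for Cdkn1a and -0.99 for Cdkn2d, with adjusted p = 0.134, 0.115 and 0.0601 without the filter and 0.266, 0.293 and 0.236 without the trend. Called members were then 0 higher and 0 lower, and called probe sets of the 10 related lists went from 17 and 9 to 7 and 3 without the filter and 0 and 0 without the trend. The upper 40% filter gave 358 and 590 calls, 1 probe set a gene 207 lower, and leaving out probe sets with shared-transcript suffixes 132 higher, with 10 higher in the lists. The last 2 settings left 1 higher member, since the Cdkn1a probe set 1421679 was not in them. Median centring gave 433 higher, 56.3% of its calls.

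A fit without 1 array assumes that the lone array of its group varies like the other group. Leaving out 1 array gave 126 to 730 higher and 171 to 1040 lower calls, 1 to 2 higher and 1 to 2 lower members, and 15 to 19 higher and 6 to 16 lower calls in the lists. Log2 differences then ran from 0.89 to 1.59 and from 0.50 to 0.62 for Cdkn1a, from -1.82 to -0.43 for Cdkn1b 1419497, and from -0.07 to 0.56 for Cdkn1c. The difference of Cdkn1c (1417649) reversed to -0.066 without knockdown replicate 1. For Sfmbt1 they ran from -1.39 to -0.83 (1422893), -3.10 to -1.60 (1422894) and -0.82 to -0.26 (1429749). Sfmbt1 1422894 did not pass without the filter or the trend (log2 -2.35, adjusted p = 0.165 and 0.246), with centring (-2.31, 0.0502) or with quantile normalization (-2.30, 0.0572), and 1422893 passed with the upper 40% filter (-1.11, 0.0208). Without knockdown replicate 2, 1422893 (-1.39, 0.000504) and 1429749 (-0.82, 0.0417) passed.

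Same-numbered arrays deviated together at r = 0.01 across probe sets, a value that cannot show a shift shared by whole arrays. Replicate 1 had the lower median log2 signal in both groups, 7.22 against 7.28 in the control and 7.14 against 7.26 in the knockdown. Whether same-numbered cultures were paired was not established. With the replicate block 379 probe sets were called higher, Sfmbt1 1422893 passed (log2 -1.11, adjusted p = 0.0488), and no member call changed. Of 9 member probe sets 6 were above background on all 4 arrays, 8 with the median and 5 with the highest of the control probe sets as the limit.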
